A study of Mus musculus with 12 samples.

Results

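The chemokines Cxcl1, Cxcl2, Cxcl3 and Cxcl5 are 4 listed genes of 16386 genes measured in one mouse cell line and 15309 in another. They were chosen by name, with earlier results of these data known, as the neutrophil-attracting CXC chemokines with a Glu-Leu-Arg motif, written ELR. Such chemokines bind heparan sulphate on cell surfaces and signal through the receptor CXCR2, which draws neutrophils along the gradient. Their genes lie side by side in a cluster and are classical targets of NF-kappaB, switched on by interleukin-1, TNF and interleukin-17, and their mRNAs carry AU-rich elements through which decay factors shorten their life. In pancreatic tumours both cancer cells and stromal cells can make them, and CXCR2 ligands are known for bringing neutrophils into this tumour.

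RNA was sequenced in 12 cultures of PSC4, a mouse line of pancreatic stellate cells (the stroma's fibroblast precursors), and of KPC4, a line from a mouse pancreatic adenocarcinoma. PSC4 spent 24 h in supernatant of KPC4. The KPC4 donors of Control-SU had been given vehicle and those of Gem-SU had been given gemcitabine, a cytidine analogue, at 10 µM; exposure lasted 6 h, and after a wash starvation medium was conditioned for 14 h. KPC4 spent 24 h in supernatant of PSC4 (Control-PSC-SU or Gem-PSC-SU); these PSC4 donors had met the matching KPC4 supernatant for 6 h and, after a wash, had conditioned fresh starvation medium for 18 h. Each of the 4 groups held 3 biological replicates of a single line, and neither recipient was given gemcitabine directly. Cell line, kind of supernatant and step of the transfer changed together, so a difference between the lines cannot be told apart from a difference between the steps.

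The library totals lay between 26354328 and 38138356 counts, so that 1 count was worth 0.0252 to 0.0385 CPM (counts relative to a fixed library size). Levels are given in CPM, scaled with factors computed over all 12 libraries. Count data were used for Cxcl1, Cxcl3 and Cxcl5 in PSC4 and for all 4 genes in KPC4; Cxcl2 in PSC4 was not analysed here. The line labels were checked against markers: the 10 epithelial markers summed to 5971 to 7638 CPM in the KPC4 libraries, and the 7 analysed in PSC4 to 15.6 to 21.6 CPM. The 10 stellate and fibroblast markers summed to 8085 to 8745 CPM in PSC4 with Control-SU and to 2387 to 3560 CPM with Gem-SU. The 6 of them analysed in KPC4 summed to 2468 to 2810 CPM with Control-PSC-SU and 1831 to 2270 CPM with Gem-PSC-SU, so this sum does not separate KPC4 from PSC4 with Gem-SU. Most of the KPC4 sum was Vim, at 2615 ± 168 and 2084 ± 234 CPM (SD, n = 3 each), while Col1a1, a fibrillar collagen gene, averaged 8.01 and 5.93 CPM in KPC4 against 3396 and 1680 CPM in PSC4. Vim and Col1a1 were picked from the list after their values were seen. Of 13 leukocyte and neutrophil markers, the 5 analysed in PSC4 summed to at most 5.70 CPM and the 4 analysed in KPC4 to at most 4.09 CPM. The 4 endothelial markers analysed in PSC4 summed to 0.612 to 1.44 CPM with Control-SU and 2.62 to 4.71 CPM with Gem-SU, and the epithelial marker Cldn7 was at 0 counts in the PSC4 Gem-SU libraries.

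The motif that defines the family is shown first, as the coding sequence around it, because it is what the 4 members have in common. The windows come from the GENCODE M21 transcripts of the GRCm38 build, and the capitals mark the codons of Glu, Leu and Arg.
Cxcl1: gccaatGAGCTGCGCtgtcagtgcctg
Cxcl2: gccagtGAACTGCGCtgtcaatgcctg
Cxcl3: gccagtGAGCTGCGCtgtcagtgcctg
Cxcl5: gcaacgGAGCTGCGTtgtgtttgctta
The motif began at residue 30 of 96 in Cxcl1, 33 of 100 in Cxcl2, 33 of 100 in Cxcl3 and 50 of 132 in Cxcl5. Cxcl2 and Cxcl3 were the closest pair, with 89.8% identical aligned coding bases and 82% identical residues. Cxcl1 shared 75.6% of aligned coding bases with Cxcl2 and 72.6% with Cxcl3. Cxcl5 stood apart, at 48.9% to 50% of aligned bases with the other 3. Cxcl2 and Cxcl3 were also the only pair with stretches of 31 bases in common, 80 of them, or 8.11% of those in the shorter transcript, so how reads were divided between these 2 genes is uncertain.

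The proximal promoters of Cxcl1, Cxcl2 and Cxcl3, the 3 of 4 members matched in the RefSeq table, are shown because the KPC4 results turn on these genes. The promoter of Cxcl5 was not searched here, so the matches below do not set the other three apart from it. The windows are the 150 bases before the annotated start in RefSeq, build GRCm38.p6, plus strand, at chr5:90891095-90891244 for Cxcl1, chr5:90903749-90903898 for Cxcl2 and chr5:90785951-90786100 for Cxcl3. The capitals mark first a match to the NF-kappaB consensus and then the letters ATAAAAGG, a TATA-type element.
Cxcl1: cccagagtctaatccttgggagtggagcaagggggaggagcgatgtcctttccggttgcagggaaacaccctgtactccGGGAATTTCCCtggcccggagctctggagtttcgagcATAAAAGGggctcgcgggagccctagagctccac
Cxcl2: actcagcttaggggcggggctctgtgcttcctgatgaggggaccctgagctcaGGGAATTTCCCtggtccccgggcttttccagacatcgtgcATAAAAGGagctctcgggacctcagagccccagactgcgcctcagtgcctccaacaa
Cxcl3: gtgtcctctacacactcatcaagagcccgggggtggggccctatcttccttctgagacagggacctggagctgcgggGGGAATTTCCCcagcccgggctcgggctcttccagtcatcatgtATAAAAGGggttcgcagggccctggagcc
The NF-kappaB match started 71 bases before the start site in Cxcl1, 97 in Cxcl2 and 73 in Cxcl3, and read as a match on both strands. Among 32526 RefSeq promoters, searched on both strands over the 250 bases before the start, 3.92% held the consensus and 0.289% held GGAATTTCC, the core common to the 3 genes. ATAAAAGG was found in 1.54% of them, and started 34, 57 and 29 bases upstream in Cxcl1, Cxcl2 and Cxcl3. GGAATTTCC was searched as the core these 3 promoters share, so its presence in all 3 was given in advance. The shares of GGAATTTCC and ATAAAAGG are therefore description only and do not measure how unusual the matches are. The AP-1 letters TGANTCA (6.73% of promoters) and the C/EBP letters TTGCNNAA (9.57%) were not among the 250 bases of these 3 genes. Cxcl1 had the CRE core TGACG (17.9% of promoters) at 215 and 194 bases on the minus strand, Cxcl2 the GC box GGGCGG (33%) at 139 bases and Cxcl3 the E-box CACGTG (6.04%) at 155 bases. These matches describe letters and say nothing of binding. The AU-rich pentamer ATTTA occurred 7 times in the 3′ untranslated region of Cxcl1, 11 times in Cxcl2, 5 times in Cxcl3 and 5 times in Cxcl5. In the last 300 bases alone the counts were 1, 3, 3 and 2, where 44.9% of 14452 genes had at least 1, 16.1% at least 2 and 5.47% at least 3.

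In stellate cells Cxcl5, the most abundant member with Control-SU, fell to a small remainder with Gem-SU, while Cxcl1 overlapped between the groups and Cxcl3 was barely counted. In tumour cells, Cxcl1, Cxcl2 and Cxcl3 were all far higher with Gem-PSC-SU than with Control-PSC-SU in every library, while Cxcl5 overlapped between the groups. The plot of CPM by library shows both patterns.

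**Figure D1:**
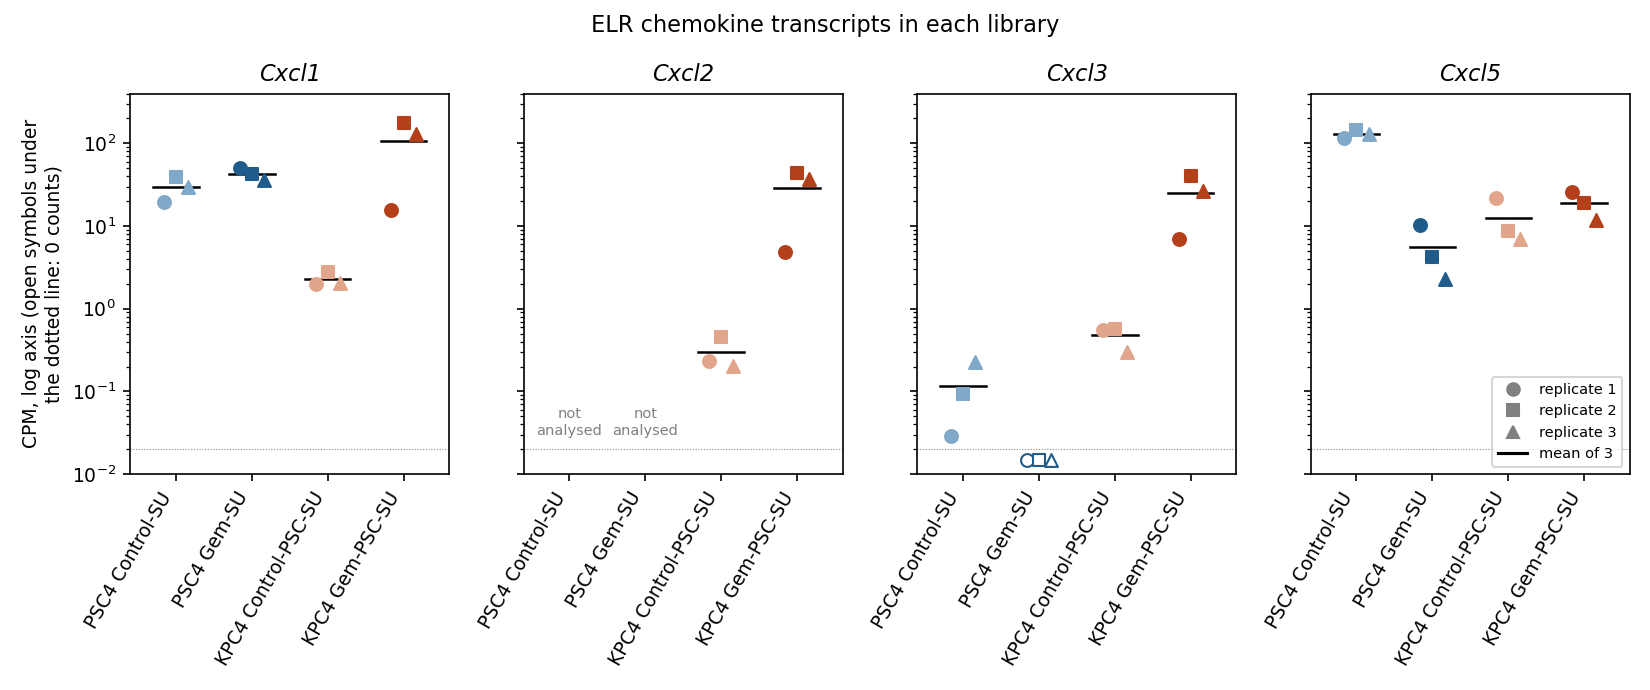
Each panel plots one chemokine gene in CPM on a log axis, by group, with 1 symbol per library (circle, square and triangle for replicates 1, 2 and 3) and a bar at the mean of 3. Cxcl5 in PSC4 with Gem-SU lies below every Control-SU library, and the KPC4 Gem-PSC-SU libraries lie above every Control-PSC-SU library for Cxcl1, Cxcl2 and Cxcl3, with replicate 1 lowest of the 3.

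Cxcl5, a CXCR2 ligand best known from epithelial cells and fibroblasts, measured 115, 144 and 129 CPM in the 3 PSC4 libraries with Control-SU and 10.3, 4.2 and 2.27 CPM with Gem-SU. The highest Gem-SU library, replicate 1, was below the lowest Control-SU library, so the groups did not overlap. The means were 129 ± 14.5 CPM (SD, n = 3) and 5.58 ± 4.17 CPM (SD, n = 3). Cxcl5 fell by 4.48 on the log2 scale (SE 0.49, adjusted p = 2.85e-04, Benjamini-Hochberg over 13347 genes, by edgeR's quasi-likelihood test). It was 1 of the 2 members tested in PSC4. Of all genes tested there, 22.0% were called lower, and 28.7% had Gem-SU libraries that all lay below Control-SU. In the authors' deposited table its log2 fold change was -4.52, with an adjusted p of 2.74e-15. The stellate and fibroblast markers moved with it: 8 of 10 were called lower, with the sums given above. Their part in the result was not tested, and in bulk RNA a smaller number of cells of a type and less RNA per cell cannot be told apart.

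Cxcl1, the mouse chemokine also called KC, measured 19.7, 38.9 and 29.995 CPM in PSC4 with Control-SU and 50.3, 42.5 and 36.1 CPM with Gem-SU. Replicate 3 with Gem-SU lay below replicate 2 with Control-SU, so the groups overlapped. The means of 29.5 ± 9.58 and 43.0 ± 7.10 CPM (SD, n = 3 each) gave a log2 fold change of 0.58 (SE 0.25), which did not pass the threshold (edgeR's adjusted p = 0.0902). None of the tested members was called higher in PSC4, where 24.3% of all genes were. The call depended on the setting: with the replicate number as a block edgeR's adjusted p was 0.0433, and without Control-SU replicate 2 it was 0.0261 with a log2 fold change of 0.81. The replicate number is not taken as a pairing in PSC4. Without Control-SU replicate 1 the log2 fold change was 0.36 (edgeR's adjusted p = 0.226), and with all 12 libraries in 1 edgeR fit the adjusted p was 0.465. In the authors' deposited table Cxcl1 had a log2 fold change of 0.82 and an adjusted p of 0.00117.

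Cxcl3, the closest relative of Cxcl2, was counted 1, 3 and 7 times in PSC4 with Control-SU, or 0.0291, 0.0941 and 0.229 CPM. With Gem-SU all 3 libraries had 0 counts, which allows up to 0.0756, 0.0881 and 0.0988 CPM (3 counts in each, counting error only). It did not pass edgeR's filter on low counts and was not tested in PSC4. DESeq2, run as an alternative, gave an adjusted p of 0.147, and edgeR with all 12 libraries in 1 fit, where Cxcl3 passed the filter, gave 0.0488. No fold is given because the control libraries were near the same floor.

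In KPC4, Cxcl1 measured 1.98, 2.78 and 2.05 CPM with Control-PSC-SU and 15.8, 176 and 129 CPM with Gem-PSC-SU. The lowest Gem-PSC-SU library, replicate 1, was still above every control, while replicates 2 and 3 were far above it. The means were 2.27 ± 0.446 and 107 ± 82.3 CPM (SD, n = 3 each), and the log2 fold change was 5.56 (SE 0.81, edgeR's adjusted p = 0.106).

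Cxcl2, known as MIP-2 and a strong neutrophil attractant, measured 0.233, 0.454 and 0.201 CPM with Control-PSC-SU, from 8, 15 and 6 counts. It reached 4.80, 44.1 and 36.8 CPM with Gem-PSC-SU, from 131, 1435 and 956 counts. The groups did not overlap, and replicate 1 was again the lowest of its group. The log2 fold change was 6.58 (SE 0.87, edgeR's adjusted p = 0.106).

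Cxcl3 measured 0.553, 0.575 and 0.302 CPM with Control-PSC-SU and 6.99, 40.6 and 26.6 CPM with Gem-PSC-SU. It too had no overlap between groups and its lowest treated value in replicate 1. The log2 fold change was 5.69 (SE 0.68, edgeR's adjusted p = 0.103).

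Cxcl5 in KPC4 measured 21.7, 8.72 and 6.88 CPM with Control-PSC-SU and 26.1, 19.2 and 11.9 CPM with Gem-PSC-SU. Control replicate 1 exceeded 2 of the 3 treated libraries, so the groups overlapped. The means of 12.4 ± 8.09 and 19.1 ± 7.11 CPM (SD, n = 3 each) gave a log2 fold change of 0.61 (SE 0.45, edgeR's adjusted p = 0.511). Here replicate 1 was the highest library of both groups, whereas for Cxcl1, Cxcl2 and Cxcl3 it was the lowest with Gem-PSC-SU.

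None of the 4 members passed the threshold in KPC4, where edgeR, fitted without pairing of replicates, called 0% of 13236 genes. The smallest adjusted p of any gene there was 0.0863, and 2251 genes had an unadjusted p under 0.05. By p, Cxcl3 was number 2, Cxcl2 number 4, Cxcl1 number 10 and Cxcl5 number 5507 of all 13236 genes tested. The members were chosen with earlier results of these data known, so their ranks and shares are description only. Groups that did not overlap, with Gem-PSC-SU above, were found for 3 of the 4 members and for 12.2% of all genes. The calls of these 3 members turned on how the spread was modelled. With the replicate number as a block, edgeR's adjusted p was 0.00139 for Cxcl2, 0.00518 for Cxcl3 and 0.0560 for Cxcl1, so 2 of 4 members were called higher, against 6.07% of all genes. DESeq2 gave adjusted p-values of 2.05e-20 for Cxcl3, 5.23e-09 for Cxcl2 and 2.96e-07 for Cxcl1, 3 of 4 members against 4.83% of all genes. Cxcl5 was not called by either, at 0.0802 and 0.493. In the authors' deposited table the log2 fold changes were 5.61 for Cxcl1, 6.78 for Cxcl2, 5.66 for Cxcl3 and 0.59 for Cxcl5. The authors' adjusted p-values were 2.47e-07, 3.82e-08, 3.97e-19 and 0.545 in the same order.

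The adjusted p-values depended on which library was left out. Without Gem-PSC-SU replicate 1, edgeR's adjusted p became 8.67e-05 for Cxcl1, 1.59e-04 for Cxcl2 and 3.04e-04 for Cxcl3, with log2 fold changes of 6.08, 7.08 and 6.13, and 6.31% of all genes were called higher. Without Control-PSC-SU replicate 2 the adjusted p-values were 0.0439, 0.0322 and 0.0270 in the same order. Leaving out any other library gave no call of these genes by edgeR. Without Control-PSC-SU replicate 1 the adjusted p-values were 0.406, 0.406 and 0.354, and without replicate 3 of that group all were 0.509. Without Gem-PSC-SU replicate 2 they were 0.227, 0.181 and 0.0713, and without replicate 3 of that group all were 0.314. Over all alternatives the log2 fold change stayed between 4.98 and 6.08 for Cxcl1, 6.09 and 7.08 for Cxcl2, 5.10 and 6.13 for Cxcl3, and 0.32 and 1.28 for Cxcl5. Set against the control of the same number, Cxcl1 was higher by 2.99, 5.97 and 5.97 on the log2 scale in replicates 1, 2 and 3. The same differences were 4.28, 6.55 and 7.40 for Cxcl2 and 3.63, 6.11 and 6.38 for Cxcl3, so that replicate 1 gave the smallest one for each of the 3 genes.

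The change of a member was then compared between the lines in one fit of all 12 libraries, as the PSC4 change minus the KPC4 change. The difference passed the threshold for each of the 3 members that could be tested, and 5.10% of all 13632 genes were called in that direction. For Cxcl1 it was -5.02 (SE 0.85, adjusted p = 0.00328 by edgeR's quasi-likelihood test), beside log2 fold changes of 0.58 in stellate and 5.56 in tumour cells fitted apart. For Cxcl5 it was -5.14 (SE 0.74, edgeR's adjusted p = 0.00142), beside -4.48 in stellate and 0.61 in tumour cells. For Cxcl3 edgeR's adjusted p was 0.00433, but all PSC4 Gem-SU libraries were at 0, so its fitted difference of -10.61 depends on the prior count and is no bound. Cxcl2 could not be compared between the lines.

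Between the control cultures, Cxcl1 was higher in PSC4 than in KPC4 by 3.70 on the log2 scale (SE 0.64, edgeR's adjusted p = 3.33e-04) and Cxcl5 by 3.38 (SE 0.54, edgeR's adjusted p = 1.68e-04). Of all genes, 22.3% were called higher in the PSC4 controls. Cxcl3 differed by -2.02 (SE 0.81), which was not called (edgeR's adjusted p = 0.0643) but was with the replicate block (0.0339). That block joins same-numbered libraries of both lines, a pairing that the labels do not state. In order of mean CPM, Cxcl1 was highest in KPC4 with Gem-PSC-SU, then PSC4 with Gem-SU, PSC4 with Control-SU and KPC4 with Control-PSC-SU. The first of these spanned both PSC4 groups, which overlapped with each other, and only the last stood apart. Cxcl5 ran from PSC4 with Control-SU through KPC4 with Gem-PSC-SU and KPC4 with Control-PSC-SU to PSC4 with Gem-SU. Its first group stood apart; KPC4 controls overlapped with both groups beside them in that order. Cxcl3 ran from KPC4 with Gem-PSC-SU through the KPC4 controls and the PSC4 controls to PSC4 with Gem-SU, with no overlap between neighbours, although the last 2 groups rest on at most 7 counts a library.

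Divided by transcript length, a different chemokine led with and without the Gem supernatants in both lines. In PSC4 with Control-SU, Cxcl5 was the highest at 82.0 ± 9.21 CPM per kb (SD, n = 3), above Cxcl1 at 31 ± 10.1. With Gem-SU, Cxcl1 led at 45.1 ± 7.45 CPM per kb over Cxcl5 at 3.54 ± 2.65. In KPC4 with Control-PSC-SU, Cxcl5 stood at 7.90 ± 5.14 CPM per kb, Cxcl1 at 2.38 ± 0.468, Cxcl3 at 0.469 ± 0.149 and Cxcl2 at 0.267 ± 0.124. With Gem-PSC-SU the order was Cxcl1 at 112 ± 86.3, Cxcl2 at 25.7 ± 18.8, Cxcl3 at 24.3 ± 16.6 and Cxcl5 at 12.1 ± 4.52 CPM per kb, with overlapping ranges for Cxcl2, Cxcl3 and Cxcl5. In replicate 1 of that group Cxcl1 and Cxcl5 were level at 16.6 CPM per kb.

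**Figure D2:**
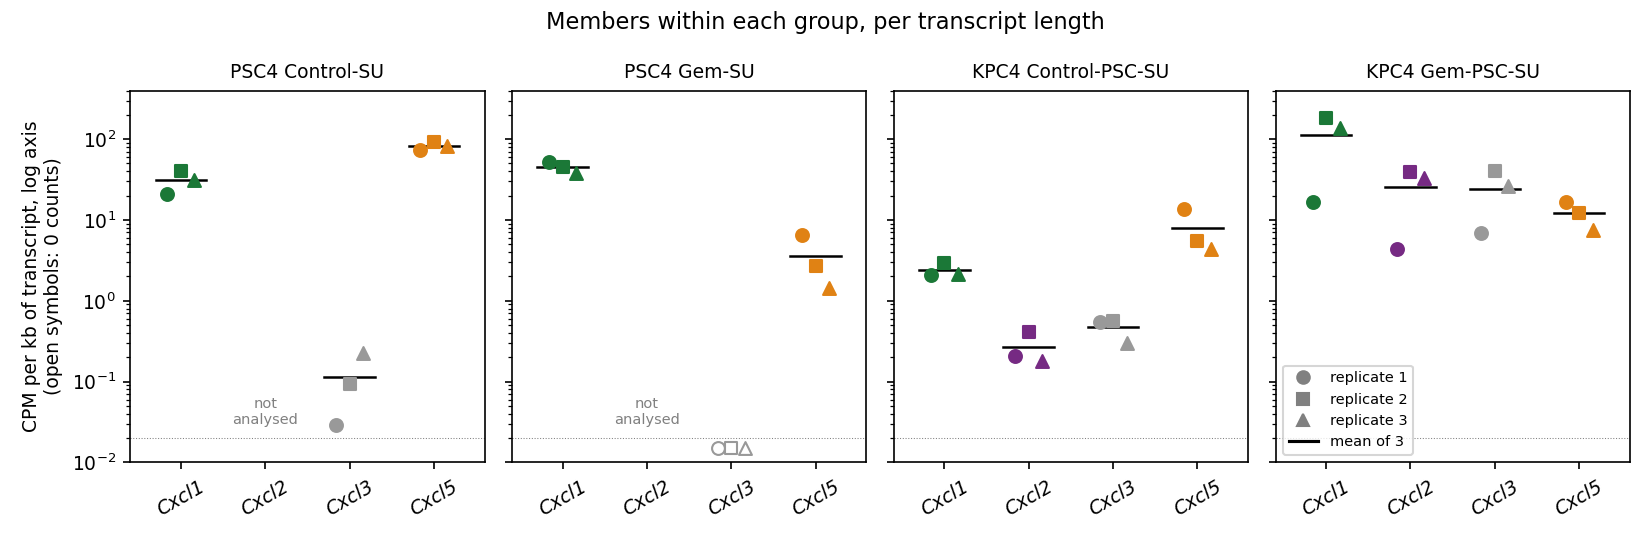
Each panel is a group and plots the 4 chemokine genes in CPM per kb of transcript on a log axis, with 1 symbol per library and a bar at the mean of 3. Cxcl5 lies above Cxcl1 in all control libraries of both lines, and below it in all PSC4 Gem-SU libraries and in KPC4 Gem-PSC-SU replicates 2 and 3.

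Cxcl1 was also set against Cxcl5 inside each library, as the log2 ratio of their counts, which does not depend on scaling. In PSC4 it went from -2.18 ± 0.33 with Control-SU to 3.20 ± 0.85 with Gem-SU (SD, n = 3 each), a difference of 5.38 without overlap (two-sided exact permutation test, p = 0.1, adjusted 0.15 over 9 tests). In KPC4 it went from -2.28 ± 1.01 to 1.97 ± 2.33, a difference of 4.25 (two-sided exact permutation test, p = 0.1, adjusted 0.15). With 3 libraries against 3, 0.1 is the smallest p this test can give, so it cannot pass the threshold. The ratios of Cxcl2 and Cxcl3 to Cxcl5 differed in the same direction in KPC4, by 5.35 and 4.64 (exact p = 0.1 each). The differences were smaller for the ratios among the other three: -0.40 for Cxcl1 to Cxcl3 (exact p = 0.5), 0.71 for Cxcl2 to Cxcl3 (exact p = 0.2) and -1.10 for Cxcl1 to Cxcl2 (exact p = 0.1). In PSC4 the ratios to Cxcl3 rest on its few counts, and differed by 3.45 for Cxcl1 to Cxcl3 (exact p = 0.1) and 1.93 for Cxcl3 to Cxcl5 (exact p = 0.2).

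The genes beside the members on chromosome 5 were read from the same fits, in their RefSeq order within 500 kb. In PSC4, Ppbp, which encodes another CXCR2 ligand and lies next to Cxcl5, fell from 7.87 ± 0.465 to 1.33 ± 0.825 CPM (SD, n = 3 each; log2 fold change -2.51, edgeR's adjusted p = 0.00215). Further along, Pf4 had at most 6 counts and Cxcl15 at most 26 in a Control-SU library, against at most 0 and 9 with Gem-SU, and neither was tested. On the other side of Cxcl1, Mthfd2l, a mitochondrial folate enzyme, fell by 1.44 on the log2 scale. Ereg and Areg, which encode the EGF receptor ligands epiregulin and amphiregulin, rose by 2.38 and 4.29. Of the 6 neighbours tested in PSC4, 2 were called higher and 2 lower, and Ankrd17 (0.61) and Btc (0.72) were not called. Of all PSC4 genes, 24.3% were called higher and 22.0% lower, so these counts are no result about the neighbourhood. In KPC4 none of 9 tested neighbours was called. Areg (3.35), Ereg (2.60), Btc (0.86) and Rassf6 (0.45) had Gem-PSC-SU libraries all above the controls, as had 12.2% of all genes. With the replicate block 3 of the 9 were called higher, against 6.07% of all genes. Mthfd2l (-0.57) and the genes on the far side of Cxcl5, Ankrd17 (0.15), Alb (1.5), Afp (0.12) and Afm (0.15), overlapped between groups. The plot in chromosomal order shows that in KPC4 the log2 fold changes of Cxcl3, Cxcl1 and Cxcl2 exceeded those of every tested neighbour, Cxcl5 included.

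**Figure D3:**
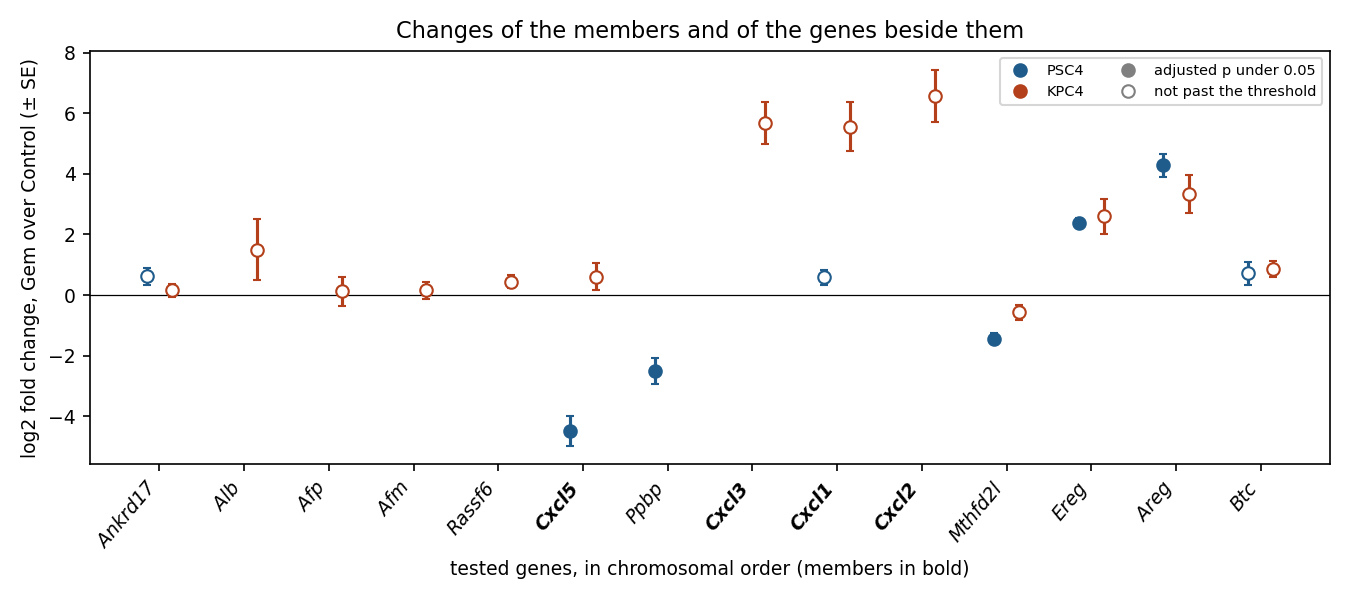
Log2 fold change of Gem over Control with its SE for the tested members (bold) and their neighbours in chromosomal order, in PSC4 (blue) and KPC4 (red), with filled symbols for an adjusted p under 0.05. In PSC4, Cxcl5 and Ppbp lie at -4.48 and -2.51 and Ereg and Areg at 2.38 and 4.29; in KPC4 Cxcl3, Cxcl1 and Cxcl2 lie at 5.69, 5.56 and 6.58, with open symbols.

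Lists of other genes of the pathway are read against the shares of all PSC4 genes, 24.3% called higher and 22.0% lower. In KPC4, 12.2% of all genes had Gem-PSC-SU libraries all above the controls. The replicate block called 6.07% of all KPC4 genes higher and DESeq2 4.83%. The lists were chosen with earlier results of these data known, so their counts are description only. Of 5 other CXC chemokines tested in PSC4, 2 were called higher and 2 lower, with a median log2 fold change of -0.41 against -0.0032 over all genes. Cxcl12, the stromal ligand of CXCR4, fell from 1085 ± 245 to 107 ± 94.4 CPM (SD, n = 3 each). Its log2 fold change was -3.30. Cxcl10, a lymphocyte attractant acting through CXCR3, rose by 1.2, and Cxcl11, a ligand of the same receptor, by 2.85 from at most 12 counts. None of the 4 tested in KPC4 was called, their median was 3.07 against -0.0194 over all genes, and DESeq2 called 3 higher. Cxcl10 there went from 4.78 ± 2.28 to 284 ± 164 CPM (SD, n = 3 each). Its log2 fold change was 5.90, and its adjusted p of 0.0863 was the smallest of that fit by edgeR.

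Among receptors and surface molecules that bind chemokines, 6 were tested in PSC4, of which 2 were called higher and 2 lower (median -0.16). With 24.3% of all genes called higher and 22.0% lower, these counts are no result about this list. Cxcr2, the receptor of the 4 members and mainly a neutrophil gene, rose by 1.35, at a low level of 1.64 ± 0.413 to 4.06 ± 1.07 CPM (SD, n = 3 each). Sdc4, a heparan sulphate proteoglycan, rose by 1.31. The scavenger receptor Ackr3 fell by 1.53 and the proteoglycan Sdc2 by 0.76. No call was made among 6 in KPC4 (median 0.04). Cxcr2 measured 1.37 ± 0.387 and 5.47 ± 4.62 CPM there, and Cxcr2 (2.01) and Sdc4 (1.14) were higher by DESeq2.

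Cytokines and receptors upstream of the members were mostly lower in PSC4: 7 of 12 were called lower and 2 higher, with a median of -0.57. Il1rn, the secreted antagonist of interleukin-1, fell from 136 ± 22.9 to 12.8 ± 7.57 CPM (SD, n = 3 each). The interleukin-1 receptor gene Il1r1 fell by 0.98 and the endotoxin receptor Tlr4 by 1.46, while Il1rap, the accessory chain of the interleukin-1 receptor, rose by 1.10. KPC4 had no call among 14, a median of 0.28, and 3 were called higher with the replicate block. Tnf had at most 5 counts in a control and 9, 257 and 57 counts with Gem-PSC-SU, with replicate 1 lowest as for Cxcl1. Tnfrsf1b, a TNF receptor, had a log2 fold change of 0.95.

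Genes of the NF-kappaB pathway were mostly higher in PSC4, in the same libraries in which Cxcl5 fell: 9 of 14 tested genes were called higher and 2 lower, with a median of 1.00. Its feedback inhibitors Tnfaip3, Nfkbia and Nfkbie rose by 2.31, 2.00 and 1.23, and the kinase gene Chuk by 1.21. These genes were named for the smallest p of the list. Of the 14, 10 had positive log2 fold changes. Mean CPM was lower with Gem-SU for Nfkbiz (45.1 to 23.2), Bcl3 (20.8 to 10.5), Ikbkb (66.4 to 51.9) and Ikbkg (76.7 to 59.0). None of the 14 was called in KPC4. There the median was 1.19, 10 had Gem-PSC-SU libraries all above the controls, the block called 2 higher and DESeq2 called 9. Tnfaip3 and Nfkbia had log2 fold changes of 3.55 and 1.39.

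The AP-1, C/EBP and Egr factors had a median log2 fold change of 3.40 in PSC4 and 2.59 in KPC4. In PSC4, 8 of 11 were called higher and 2 lower, with Atf3 at 8.07, Fos at 6.06, Egr1 at 5.32 and Fosl1 at 3.71. No factor was called in KPC4, where all 11 log2 fold changes were positive, 9 had Gem-PSC-SU libraries all above the controls, the block called 4 higher and DESeq2 9. Atf3, a stress-induced factor, had a log2 fold change of 6.65 there and Egr1, an immediate early factor, 5.61.

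Of the genes that set the decay and stability of chemokine mRNA, 3 of 11 were called higher in PSC4 and 2 lower (median 0.26), shares near those of all genes (24.3% and 22.0%), so the counts are no result about this list. Zfp36, whose protein binds AU-rich elements and speeds decay, rose by 2.07, and Dusp1, a phosphatase of p38, by 2.29. Zfp36l2, a relative of Zfp36, fell by 1.36 and Traf3ip2, the interleukin-17 adaptor, by 1.63. None of the 11 was called in KPC4 (median 0.04), and the block and DESeq2 each called 3 higher. Dusp1 and Zfp36 had log2 fold changes of 4.70 and 1.99.

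Other genes of neutrophil growth, attraction and adhesion were mostly higher in PSC4, where 8 of 12 were called higher and 2 lower (median 1.75). Lif rose by 5.10, Ptgs2, the inducible prostaglandin synthase, by 4.91, and Il6 by 4.11. Csf2, the growth factor GM-CSF, had 0 counts in all Control-SU libraries and 73, 41 and 37 counts with Gem-SU. In KPC4 none of 10 was called (median 1.97), the block called 3 higher and DESeq2 9. Csf2 measured 0.48 ± 0.531 and 43.4 ± 44.8 CPM there (SD, n = 3 each), and Ptgs2 had a log2 fold change of 3.93.

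**Figure D4:**
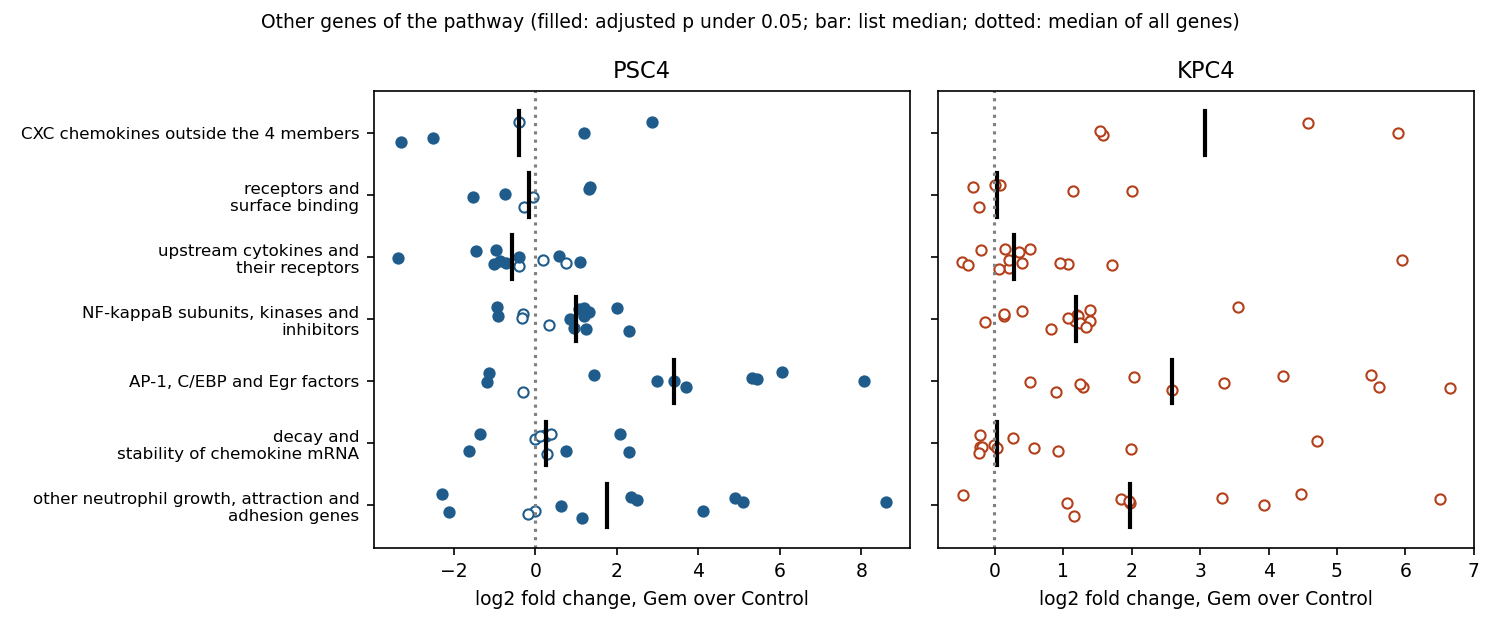
Log2 fold changes of Gem over Control for the tested genes of each list (points, filled for an adjusted p under 0.05), with a bar at the list's median and a dotted line at the median of all genes. In PSC4 the AP-1, C/EBP and Egr list reaches a median of 3.40 and the upstream list -0.57; in KPC4 every point is open. The PSC4 point furthest to the right is Csf2, whose controls were at 0 counts, so its place depends on the prior count.

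The genes whose pattern over the 6 libraries of a line came closest to a member's were found by the root mean square difference of centred log2 CPM. In KPC4, over 12418 candidates, Cxcl1 was closest to Fos (0.25), Egr1 (0.33) and Egr2 (0.43). Cxcl2 was closest to Atf3 (0.39), Cxcl10 (0.39) and Egr2 (0.46), and Cxcl3 to Cxcl1 (0.44), Cxcl10 (0.47) and Fos (0.47). Fos measured 5.01, 5.24 and 4.23 CPM with Control-PSC-SU and 29.6, 430 and 192 CPM with Gem-PSC-SU, so it too had replicate 1 lowest of the treated libraries. Cxcl5 had other neighbours in KPC4, led by Tmem150b (0.12), Bhmt2 (0.22) and Hpcal4 (0.22). These genes had few counts there, at 9 to 36, 4 to 27 and 5 to 26 a library, against 205 to 746 for Cxcl5. How closely they follow Cxcl5 is therefore uncertain. In PSC4, over 12512 candidates, Cxcl5 was closest to Rspo2 (0.29), a Wnt agonist, Serpinb1a (0.39), an inhibitor of neutrophil proteases, and Galnt15 (0.41). Rspo2 measured 28.5, 20.04 and 24.0 CPM with Control-SU and 1.79, 0.764 and 0.263 CPM with Gem-SU, the same order of treated libraries as Cxcl5. Cxcl1 in PSC4 was closest to Prl2c2 (0.10), Usp2 (0.16) and Cnnm2 (0.17), none of which was called. These distances describe 6 libraries that share their group difference.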

How the data were processed

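Per the labels, RNA of 12 cultures was read on the NovaSeq X Plus platform. The authors deposited whole-number counts per gene and library for each line, with gene identifiers. The authors also deposited a table per line of log2 fold changes, p-values and adjusted p-values, used only as the authors' values. The submitters' processing notes name FastQC, Trim Galore 0.6.10, cutadapt 5.2, Salmon, R 4.5.1, DESeq2 and GRCm39, with no role or order, so the counting step is not given in the sources used here. The smallest row total was 0 in PSC4 and 11 in KPC4, and 0 per-sample columns went unused. Symbols from GENCODE M21 matched 16329 of 16386 PSC4 and 15265 of 15309 KPC4 identifiers. M21 and RefSeq, both of the older GRCm38 build, also gave gene order, transcripts and promoters, and no coordinate is given for the counts.

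Each line was fitted apart with edgeR 4.0.16 in R 4.3.3: filterByExpr, TMM scaling and the robust quasi-likelihood test, with calls at a Benjamini-Hochberg adjusted p under 0.05. All 12 libraries entered the comparisons between lines. CPM used TMM factors over the 12 libraries, and 1 count was 0.0252 to 0.0385 CPM. Logarithms of member ratios had 0.5 counts added. The plan held 12 such ratios; Cxcl2 was not analysed in PSC4, so 9 were tested. DESeq2 1.42.0, the replicate block, other filters and scalings and leaving out each library were alternatives. The code was tested on simulated data. Replicates were separate libraries by their counts. They are labelled biological, but separate origin is not described, so p-values measure the spread between these samples.

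The members and gene lists were chosen with earlier results of these data known. Named genes were the members, the 3 genes closest in pattern to each member with a mean of at least 10 counts (prior count 2, predicted genes and pseudogenes left out), up to 4 called genes of each list by p or else the 2 with the smallest p, and tested neighbours within 500 kb. Same-numbered KPC4 libraries deviated together (r = 0.351, 0.436 and 0.211), which hints at a pairing that the labels do not state. The reported KPC4 fit and exact ratio tests did not use this pairing. The replicate block, an alternative, did.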

Additional observations from a re-analysis of the deposited data

Results flagged for a closer look

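For 15 named genes the difference between the lines, the PSC4 change minus the KPC4 change on the log2 scale, passed the threshold in the fit of all 12 libraries (edgeR, Benjamini-Hochberg adjustment). Of all 13632 genes, 1343 were called in this fit, with 5.10% of all genes called in the negative direction. Many named genes were picked from these same libraries by p or by pattern. Their number and directions here are therefore description only. Among the chemokines these were Cxcl1 (-5.02), Cxcl3 (-10.61, with PSC4 Gem-SU at 0 counts), Cxcl5 (-5.14) and Cxcl10 (-4.74). Serpinb1a (-4.56) and Galnt15 (-4.91) were among the genes closest to Cxcl5 in PSC4. Serpinb1a measured 58.1, 55.5 and 51.3 CPM in PSC4 with Control-SU and 7.21, 2.41 and 1.78 CPM with Gem-SU. In KPC4 it measured 59.1, 41.3 and 42.4 CPM with Control-PSC-SU and 98.3, 58.6 and 78.2 CPM with Gem-PSC-SU, where the groups overlapped. Of the genes upstream of the members, Il1rn (-3.92), Il1r1 (-1.17), Tlr4 (-1.12) and Tnfrsf1b (-1.41) were lower in this comparison, as was the receptor Ackr3 (-1.34). So were Traf3ip2 (-1.44) and Zfp36l2 (-1.45), from the list of decay and stability of chemokine mRNA. Rassf6, the neighbour before Cxcl5, had a difference of -4.73 that rests on at most 15 counts in PSC4. Lif was the one gene of the 15 with a positive difference (3.09).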

How the results depend on the processing

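Of 169 member fold changes recomputed under the alternatives, 149 kept their direction and side of the threshold, 20 passed it where the reported value did not, and none reversed or was lost; none of 78 ratio values reversed.

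The number of PSC4 members called was 1, and 2 with the replicate block, where Cxcl1 was added, or with all 12 libraries in 1 fit, where Cxcl3 was added and Cxcl1 was not; leaving out a library gave 1 to 2 (2 without Control-SU replicate 2). The 6177 PSC4 genes called became 4061 (without Gem-SU replicate 2) to 6826 leaving out a library, 7266 with the replicate block and 6872 by DESeq2. In KPC4 the 0 members called became 2 with the replicate block, 3 by DESeq2 and 2 with all 12 libraries in 1 fit, where Cxcl2 has no value, and 0 to 3 leaving out a library. The 0 KPC4 genes called became 1171 with the replicate block, 806 by DESeq2, 610 with 12 libraries and 0 to 1129 leaving out a library (174 without Control-PSC-SU replicate 2). The 0 pathway genes called became 16, 37 and 32 under these 3 settings, and 0 to 41 leaving out a library (5 without Control-PSC-SU replicate 2, 41 without Gem-PSC-SU replicate 1). The 1343 genes called between lines became 2988 with the replicate block, 2163 by DESeq2 and 610 (without PSC4 Gem-SU replicate 2) to 1993 leaving out a library (779 without KPC4 Control-PSC-SU replicate 3, 828 without KPC4 Gem-PSC-SU replicate 3, 810 and 812 without PSC4 Control-SU or Gem-SU replicate 3). In PSC4 same-numbered libraries correlated at 0.428, -0.0548 and 0.102, so the number is not taken as a pairing there.

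The settings added for pathway counts were chosen after seeing the data. A minimum of 10 counts in every library left no value for Cxcl2 and Cxcl3. Depth limits Cxcl3 in PSC4, at 0 to 7 counts a library.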
